A study of Rattus norvegicus with 18 samples.

Results

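CpG-dense, lowly methylated CpGs of the rat striatum were examined across a unilateral 6-hydroxydopamine lesion and 2 drug treatments. A CpG belonged to this set when it was covered in all 18 striata, lay on chromosomes 1 to 20, had at least 5 other such CpGs within 100 bases on either side, and had a mean methylation level below 20% over the 6 striata of saline-treated rats. Of 292497 CpGs covered in all 18 striata, 47593 (16.3%) met this rule and are called members here. The members were chosen by the levels of the saline-treated rats, so every value of those rats, and every difference from them, is given as a description.

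The striata were those of juvenile male Wistar rats in which 6-hydroxydopamine (6-OHDA), a toxin of dopaminergic neurons, had been injected into the left medial forebrain bundle at postnatal day 21. From day 35 to day 49 the rats received saline (UNT), or the dopamine precursor L-DOPA together with benserazide (L-DOPA). The third group received L-DOPA with benserazide and the antiglutamatergic drug Riluzole, which was dissolved in Tween (L-DOPA + R). A last dose was given on day 53, the day the tissue was taken. All 9 rats carried the lesion, and no sham-operated group was analysed here, so the unlesioned reference is the opposite striatum of the same rat. Each treatment had 3 rats with a control and a lesioned striatum, and each whole striatum is a mixture of cells, in which a change in cell composition and a change in the methylation of a cell type cannot be told apart. The libraries hold genomic DNA, so the tissue label could not be checked against marker transcripts.

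Methylation of cytosine in CpG dinucleotides is a heritable mark that is usually found on most CpGs of mammalian genomes. The exceptions are CpG islands, stretches in which CpGs are frequent and mostly unmethylated, and many promoters lie in such islands. Dense methylation of an island promoter is known to go with silencing of the gene, as on the inactive X chromosome and at imprinted genes, whereas most island promoters stay unmethylated whether or not the gene is active.

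The sequences that show what such DNA looks like are 250-base stretches just before a gene start, taken from RefSeq (assembly GRCr8), in the direction of the gene, with the members in capitals. Their rn6 positions come from a match of the spacing of the measured CpGs to the CG dinucleotides of the sequence. The first pair is shown as examples among the 5 placed promoters with the most members, chosen after their values were seen for the known roles of their genes: the promoter of Abcc4, a transporter that exports cyclic nucleotides, at chr15:103927593-103927842 on the minus strand, and that of Dnajc5, a chaperone of synaptic vesicles, at chr3:177013354-177013603 on the plus strand.
Abcc4: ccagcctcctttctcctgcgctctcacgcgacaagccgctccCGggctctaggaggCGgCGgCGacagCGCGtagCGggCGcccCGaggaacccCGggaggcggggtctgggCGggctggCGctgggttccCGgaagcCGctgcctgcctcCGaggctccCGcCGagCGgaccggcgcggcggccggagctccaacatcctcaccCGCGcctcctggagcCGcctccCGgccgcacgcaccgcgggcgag
Dnajc5: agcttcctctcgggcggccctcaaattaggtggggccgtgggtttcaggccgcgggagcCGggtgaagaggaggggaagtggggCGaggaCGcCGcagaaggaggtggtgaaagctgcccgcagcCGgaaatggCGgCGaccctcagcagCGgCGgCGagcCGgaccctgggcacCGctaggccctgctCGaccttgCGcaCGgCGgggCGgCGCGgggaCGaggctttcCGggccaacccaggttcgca

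Of the 37 CG dinucleotides in the Abcc4 stretch 22 were members, and of the 28 in the Dnajc5 stretch 21 were members. The mean level over the 22 Abcc4 members was 0.743% ± 0.246 in UNT, 1.36% ± 0.256 after L-DOPA and 1.32% ± 0.110 after L-DOPA + R (SD, n = 3 rats). Over the 21 Dnajc5 members it was 1.44% ± 0.330, 1.08% ± 0.311 and 1.47% ± 0.346. No striatum exceeded 1.77% at Abcc4 or 2.46% at Dnajc5.

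The next 3 stretches are shown as examples among the few placed promoters whose members had levels of 5% or more, chosen after their values were seen for the known roles of their genes. They are the promoters of Tbx1, a T-box transcription factor of embryonic development, at chr11:86553566-86553815, of Igf2r, the receptor that binds insulin-like growth factor 2 and mannose 6-phosphate, at chr1:48175845-48176094, and of Hes5, a repressor induced by Notch signalling, at chr5:172364171-172364420, all on the plus strand.
Tbx1: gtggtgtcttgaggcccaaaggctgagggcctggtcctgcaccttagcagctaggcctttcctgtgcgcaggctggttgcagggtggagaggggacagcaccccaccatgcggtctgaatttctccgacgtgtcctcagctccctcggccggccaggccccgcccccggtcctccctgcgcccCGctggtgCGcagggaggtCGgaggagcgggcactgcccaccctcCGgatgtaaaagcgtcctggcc
Igf2r: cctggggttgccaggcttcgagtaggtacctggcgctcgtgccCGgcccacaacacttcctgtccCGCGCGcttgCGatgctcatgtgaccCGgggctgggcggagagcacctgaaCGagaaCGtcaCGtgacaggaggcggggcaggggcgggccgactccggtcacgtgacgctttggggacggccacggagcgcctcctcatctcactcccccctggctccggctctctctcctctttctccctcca
Hes5: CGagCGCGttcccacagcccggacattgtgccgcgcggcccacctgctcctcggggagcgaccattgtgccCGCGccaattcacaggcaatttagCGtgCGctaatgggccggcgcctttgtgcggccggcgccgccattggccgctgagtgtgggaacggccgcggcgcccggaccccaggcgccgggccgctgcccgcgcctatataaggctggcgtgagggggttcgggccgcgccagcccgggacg

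In these stretches the Tbx1 members had a mean level of 11.6% in UNT, 11.3% after L-DOPA and 11.3% after L-DOPA + R. The Igf2r members had 8.89%, 6.998% and 7.98%. The Hes5 members had 7.81%, 5.95% and 6.98%. Single striata spread widely here, from 6.80% to 19.04% at Tbx1, from 1.67% to 15.6% at Igf2r and from 2.69% to 12.9% at Hes5, and the 3 treatments overlapped at each.

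The last stretch is shown because 3 of the 4 members that differed between the drug treatments lie just downstream of it, at the start of Arf6, a small GTPase of endosomal membrane traffic and actin at the cell surface. It lies at chr6:91696859-91697108 on the plus strand. None of its 39 CG dinucleotides was covered in all 18 striata, so here the capitals mark the 7 CpGs with at least 10 reads in 9 striata or more.
Arf6: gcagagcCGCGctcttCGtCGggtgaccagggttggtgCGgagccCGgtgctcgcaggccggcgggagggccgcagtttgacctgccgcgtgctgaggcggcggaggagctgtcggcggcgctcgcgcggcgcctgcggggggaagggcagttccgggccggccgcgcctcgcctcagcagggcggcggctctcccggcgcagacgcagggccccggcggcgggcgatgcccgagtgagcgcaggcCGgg

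The stretches are rich in the letters CCGG, the cut site of the enzyme MspI that made the libraries, with 6 in Abcc4, 4 in Dnajc5, 3 in Tbx1, 4 in Igf2r, 6 in Hes5 and 7 in Arf6. Over the 32007 promoter stretches of this length in the RefSeq table, 46.8% held CCGG, against 94.7% of those of genes whose start could be placed by the measured CpGs. The letters GGGCGG on either strand, the core of a binding motif of Sp1 family factors, were present in 30.7% and 69.1%, and the letters TATAAA on either strand in 12.8% and 3.61%. Of the 6 printed stretches, Hes5 alone lacked GGGCGG, and none held TATAAA. The placed promoters were found through covered CpGs near MspI sites, which bears on all of these shares.

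Across the series, 18471279 to 49113957 cytosine calls were made per striatum, and 639238 to 1449808 cytosines reached 10 reads. At the members, median coverage ran from 20 to 63 reads per striatum. An unmethylated spike-in control read as methylated at 0.302% to 0.928% of its cytosines and a methylated one at 98.1% to 98.7%, so a level under about 1% is within what incomplete conversion alone can give. The unmethylated control was highest in UNT, at 0.477% to 0.928%, against 0.302% to 0.470% after L-DOPA and 0.429% to 0.563% after L-DOPA + R, and its part in the levels below was not tested. Intervals and limits from read numbers cover counting error only.

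The members were close to unmethylated in every striatum. Their mean level was 1.64% ± 0.0476 in UNT, 1.65% ± 0.0294 after L-DOPA and 1.59% ± 0.0432 after L-DOPA + R (SD, n = 3 rats), and single striata ran from 1.55% to 1.70%. The median member had a level of 0 in each striatum, and between 62.9% and 78.3% of the members had no methylated read in a given striatum. The lowest share was in UNT lesioned 1, which had the highest median coverage, 63 reads. The highest share was in L-DOPA control 2, which had the lowest, 20 reads. The part of depth in this share was not tested.

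**Figure D1:**
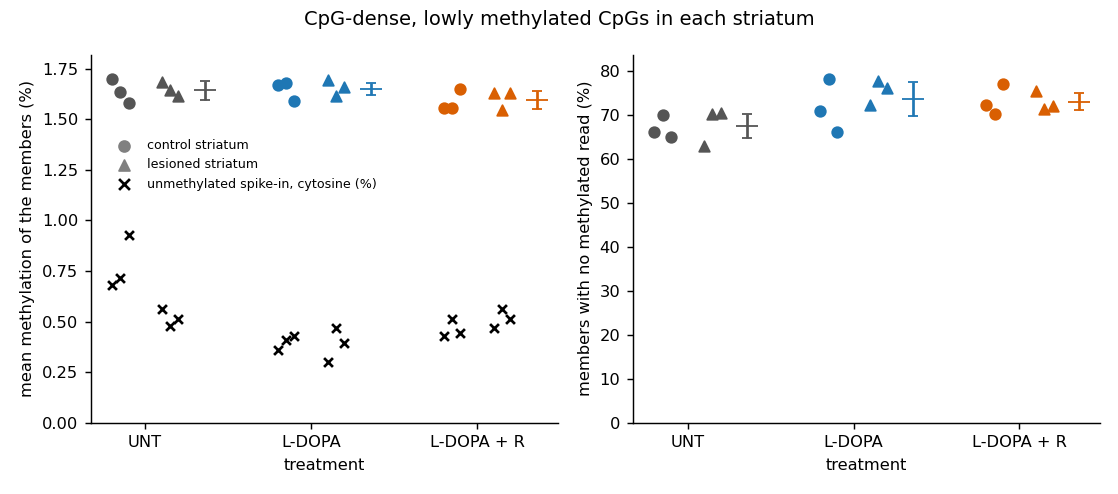
Left, mean methylation of the 47593 members in percent in each striatum (circles control, triangles lesioned side), with the percentage of cytosine in the unmethylated spike-in as crosses and the mean ± SD of the 3 rats beside each group; right, the percentage of members with no methylated read. All striata sit between 1.55% and 1.70%, above the spike-in values of 0.302% to 0.928%. On the right, the striatum with the lowest share had the highest median coverage, and that with the highest share the lowest.

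The rat means of L-DOPA were 1.68%, 1.65% and 1.62%, and those of L-DOPA + R were 1.59%, 1.55% and 1.64%. The ranges of the drug groups overlapped, since L-DOPA + R rat 3 lay above L-DOPA rat 3. Lesioned minus control, the mean within-rat difference was 0.00881 ± 0.0247 percentage points in UNT, 0.0113 ± 0.0686 after L-DOPA and 0.0141 ± 0.0502 after L-DOPA + R (SD, n = 3 rats), in each case smaller than its spread, with the lesioned side higher in 2, 2 and 1 of the 3 rats.

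Over all 18 striata, 5610 members (11.8%) had no methylated read at all, at a median of 541 reads summed over the striata, which allows a level of up to 0.555% (3 reads of that total). A further part carried low levels throughout, and 45081 members (94.7%) stayed below 20% in each of the 18 striata. At the other end, 44 members reached 50% in at least 1 striatum. In L-DOPA 140 members and in L-DOPA + R 105 members had a group mean of 20% or more, and 48 were in both lists, which is 34.3% of the first and 45.7% of the second.

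Levels followed those of UNT that chose the members. The 15095 members at 0 in UNT averaged 0.354% after L-DOPA and 0.385% after L-DOPA + R. The 8437 members between 2% and 5% in UNT averaged 3.28% and 3.09%, and the 1154 members between 10% and 20% averaged 13.3% and 12.7%. Members just inside the limit were CpGs at chr18:32393308, chr6:77510106 and chr7:74076969, at 19.99%, 19.99% and 19.99% in UNT. The nearest dense CpGs left outside were chr14:77642726, chr1:11910252 and chr2:23289084, at 20.02%, 20.03% and 20.03%. Those inside had L-DOPA means of 29.4%, 14.6% and 19.1% and those outside 19.8%, 26.9% and 14.5%, so neighbours across the limit did not fall into separate ranges.

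The share of CpGs with a UNT mean below 20% was 83.8% among the 56822 dense CpGs and 27.9% among the 235675 others, a description, since the rule used both measures. It was 82.0% at 5 to 9 neighbours, 94.4% at 10 to 14, 89.6% at 15 to 19 and 73.1% at 20 to 24, where 104 CpGs remained. The median member had 7 neighbours. Members with 10 to 14 neighbours averaged 1.24% ± 0.0180 after L-DOPA and 1.24% ± 0.0497 after L-DOPA + R, against 1.73% ± 0.0337 and 1.67% ± 0.0409 at 5 to 9 (SD, n = 3 rats). Members with 10 to 14 neighbours were thus lower than those with 5 to 9 in both drug groups, by more than the spread between rats. At 20 to 24 neighbours the 76 members averaged 1.35% ± 0.730 and 1.81% ± 0.753, a spread too wide to place them below either bin.

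The most crowded members were chr13:52514798 with 25 neighbours and chr13:52514757 with 23, which lie 95 and 136 bases after the placed start of Nav1, a neuronal protein that guides microtubules, and chr4:77448323 with 24. The first had group means of 2.80%, 3.69% and 2.46% in UNT, L-DOPA and L-DOPA + R. The other two stayed below 1% in each group. Per chromosome, the share of covered CpGs that were members ran from 13.1% on chromosome 20 to 18.9% on chromosome 10.

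Gene starts were placed on rn6 for 2903 genes of 26266 in the RefSeq table. Of the dense CpGs within 1000 bases of a placed start, 15241 were members and 79 had a UNT mean of 20% or more. These 15241 members, 32.02% of the set, averaged 1.12% ± 0.00104 in UNT, 1.14% ± 0.0128 after L-DOPA and 1.10% ± 0.00925 after L-DOPA + R (SD, n = 3 rats). The 32352 members farther from any placed start averaged 1.89% ± 0.0705, 1.89% ± 0.0410 and 1.83% ± 0.0595. The latter group includes members at gene starts that could not be placed.

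**Figure D2:**
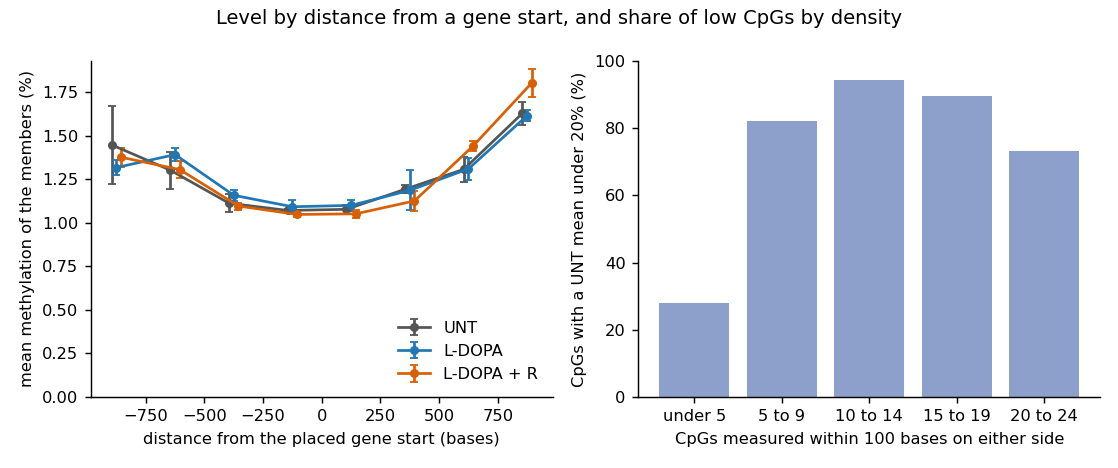
Left, mean methylation of the members in percent against distance from the placed gene start in bases, in bins of 250 bases, as mean ± SD of 3 rats per treatment; right, percentage of CpGs with a UNT mean under 20% by the number of CpGs within 100 bases on either side. Levels were lowest in the bins that meet at the start, and the share of low CpGs rose from 27.9% to 94.4% and then fell.

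In the 250 bases before the start the 6358 members averaged 1.09% ± 0.0372 after L-DOPA and 1.05% ± 0.0166 after L-DOPA + R. Between 750 and 1000 bases after it the 279 members averaged 1.62% ± 0.0326 and 1.804% ± 0.0821. The level was thus lower in the first of these bins than in the second in both drug groups, by more than the spread between rats.

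At 1055 placed starts, 5 or more members lay within the 300-base window, and at 1022 of these the mean of the drug-treated rats was under 2%. It was 5% or more at 7 starts and 10% or more at 4. By name these 4 were an uncharacterized locus, Cpxm2, a carboxypeptidase-like secreted protein, Rhcg, an ammonium transporter, and Tbx1, with drug-treated means of 11.6%, 10.8%, 10.8% and 10.4%. At Cpxm2 single striata ran from 1.82% to 22.4% and at Rhcg from 7.36% to 17.1%.

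Of 69 genes in 6 lists (ubiquitous genes, dopamine and striatal signalling, activity-induced genes, glutamate receptors, DNA methylation machinery and developmental regulators), 8 had a placed start and 4 had members within 1000 bases. Grik3, a kainate receptor subunit, had 23 such members, at 1.43% ± 0.315 in UNT, 1.72% ± 0.627 after L-DOPA and 1.57% ± 0.325 after L-DOPA + R. Egr2, an activity-induced transcription factor, had 8, at 0.516% ± 0.470, 0.306% ± 0.266 and 0.667% ± 0.252. Adcy5, the main adenylyl cyclase of striatal neurons, had 7, at 0.812% ± 0.449, 1.77% ± 0.974 and 1.70% ± 0.877 (SD, n = 3 rats). The single member at Gadd45b, a stress-induced gene linked to DNA demethylation, was at 0 in all 18 striata. None of these 39 members passed the test between the drug treatments, against 0.0477% of all CpGs tested, so that no call is the usual outcome for so few sites, and the groups overlapped at Grik3, Egr2 and Adcy5.

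The comparison of L-DOPA + R with L-DOPA asks what Riluzole, with its Tween solvent, changed on top of L-DOPA and benserazide. UNT played no part in this comparison beyond choosing the members. A logistic test with a correction for overdispersion was fitted to the methylated and unmethylated reads of each of 568416 CpGs, with both striata of each rat as separate samples, and q-values were adjusted over all of them. The background was 0.0477% of CpGs called at q under 0.01, that is 271. Of the 47593 members 4 were called, 1 higher and 3 lower in L-DOPA + R, or 0.00840%. At an unadjusted p under 0.05 stood 2594 members, 5.45%, against 7.09% of all CpGs tested. The median difference over the members was 0. Called members were thus a smaller share than the background, and the difference in share was not itself tested.

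The 3 lower members lie in the gene Arf6, in its exon and promoter by the study's rn6 annotation where it lists them, 145, 148 and 178 bases after the placed start. At chr6:91697254 the 6 L-DOPA striata ran from 6.06% to 26.2% with a median of 14.7%, and all 6 L-DOPA + R striata were at 0. At chr6:91697257 the L-DOPA striata ran from 7.14% to 33.3% with a median of 12.6%, against 0 in all 6 of L-DOPA + R. At chr6:91697287 they ran from 5.66% to 31.0% with a median of 8.01%, again against 0 in all 6. The treatments did not overlap at any of the 3 sites, and the sites are not separate evidence. On the plus strand they had 155, 154 and 153 reads after L-DOPA and 116, 115 and 115 after L-DOPA + R.

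The differences, L-DOPA + R minus L-DOPA in summed reads, were -16.1, -15.6 and -13.3 percentage points (logistic test, q = 1.90e-04, 3.57e-04 and 0.00547). Behind the zeros stand 116, 115 and 189 reads, which allow levels of up to 2.59%, 2.61% and 1.59%. Coverage per striatum was low, from 12 to 42 reads at chr6:91697254 after L-DOPA and from 15 to 28 after L-DOPA + R. At chr6:91697287 the plus strand differed by -16.3 points. The minus strand there differed by -2.33 points, at 43 reads after L-DOPA and 74 after L-DOPA + R. Sites chr6:91697254 and chr6:91697257 had reads on the plus strand only, so the minus strand could not be compared there. A cytosine of chr6:91697287 lies 46 to 50 bases past another covered cytosine, and this CpG was not tested without such cytosines.

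UNT did not sit with one drug group. UNT rats 1 and 2 were at 0 to 3.13% at these 3 sites, and UNT rat 3 was at 18.9%, 9.51% and 13.02%. The L-DOPA rats were at 20.7%, 16.1% and 10.2% at the first site, 18.3%, 20.2% and 9.55% at the second and 23.3%, 8.01% and 5.96% at the third. One UNT rat of 3 thus resembled the L-DOPA rats while the other two resembled L-DOPA + R.

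**Figure D3:**
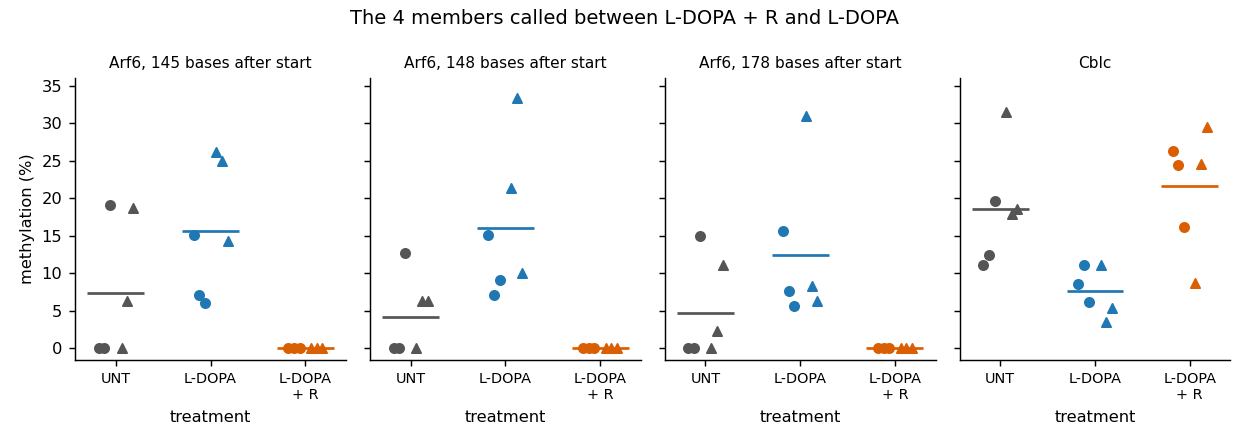
Methylation in percent of the 4 members called between L-DOPA + R and L-DOPA, in each striatum (circles control, triangles lesioned side), with the mean of 3 rats as a line. At the 3 Arf6 sites all L-DOPA + R striata lie at 0 and all L-DOPA striata above 5%, while at Cblc the L-DOPA + R striata lie mostly higher.

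L-DOPA was also higher than L-DOPA + R in summed reads at CpGs around the Arf6 start that are no members, because they had fewer than 5 neighbours covered in all striata or, at chr6:91697105, were covered in 17 of the 18 striata themselves. At chr6:91697132, 23 bases after the start, L-DOPA had 36.6% of 216 reads methylated, with striata from 12.5% to 53.1%, and L-DOPA + R had 0.465% of 215, with striata from 0 to 2.78% (q = 3.05e-07). At chr6:91697134 the values were 33.6% and 0.957% (q = 3.64e-09) and at chr6:91697105, 4 bases before the start, 30% and 5.17% (q = 0.00322). At chr6:91697141 the values were 29.4% and 4.47%, which did not pass (q = 0.0312). The striata of the drug groups overlapped at chr6:91697105, where the lowest of L-DOPA was at 13.04% and the highest of L-DOPA + R at 14.3%, and at chr6:91697141, at 7.50% and 7.69%. UNT striata of rat 3 were at 26.4% and 30.9% at the first of these and those of UNT rats 1 and 2 at 0 to 3.57%.

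Between these groups of sites the methylation was low in all treatments. The CpGs from 44 to 111 bases after the start stayed at 4.35% or less in summed reads in each treatment, and so did the 6 sites of the printed Arf6 stretch more than 200 bases before the start, apart from 6.45% of 62 reads at the last of them in L-DOPA + R. The members at chr6:91697332 and chr6:91697343, farther into the gene, differed by -0.0646 and 0.943 points and did not pass.

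**Figure D4:**
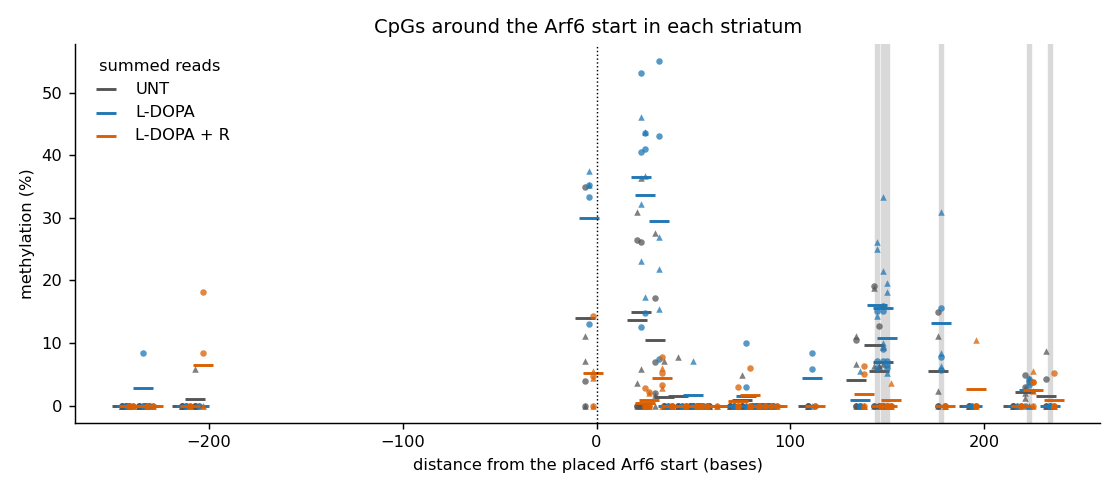
Methylation in percent of the CpGs with at least 10 reads in 9 striata or more, against distance from the placed Arf6 start in bases; small points are striata (circles control, triangles lesioned side), horizontal marks are the summed reads of a treatment, grey bands mark members. L-DOPA lies above L-DOPA + R near the start and again about 145 to 178 bases after it, with low values in all treatments between.

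The single higher member was chr1:80715807 in Cblc, a member of the CBL family of ubiquitin ligases, in an exon and the promoter by the study's rn6 annotation. The L-DOPA striata ran from 3.57% to 11.1% with a median of 7.35%, and the L-DOPA + R striata from 8.70% to 29.5% with a median of 24.5%. The groups overlapped through 1 L-DOPA + R striatum, the lesioned side of rat 1. The difference was 15.7 percentage points (logistic test, q = 0.00934). UNT striata ran from 11.1% to 31.5%, with a mean of 18.5% that lies near the limit of the rule. The other 7 members within 100 bases of this site had a median difference of 0.111 points, from -2.90 to 9.01, and none of them was called.

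Some of these calls were lost without a rat or with another test, while the differences kept their direction. Without L-DOPA rat 1, 1 member was called in this comparison and all 4 sites lost their calls, with q from 0.0172 to 0.0844. The differences were then -11.25, -12.7 and -6.56 points at the Arf6 sites and 16.7 at Cblc. The Cblc call was also lost without each of the other 5 rats (q from 0.0101 to 0.152), at differences of 14.5 to 16.9 points, and 0 members were called by an F test. With the reads of both striata summed, so that the rat was the unit, the calls at chr6:91697287 (q = 0.202) and at Cblc (q = 0.0117) were lost and the other two were kept. Without any 1 L-DOPA + R rat the call at chr6:91697287 was lost, and without L-DOPA + R rat 2 also that at chr6:91697257, with the differences at the Arf6 sites as before, since all L-DOPA + R striata were at 0.

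Neighbouring members tended to share their level. Over 41173 pairs of adjacent members at most 100 bases apart, with a median gap of 8 bases, the levels of the drug-treated rats correlated with r = 0.587 across pairs, which often share reads and are not independent. Runs of covered CpGs with gaps of at most 100 bases gave 13151 clusters of 5 or more CpGs, of which 5445 held at least 5 members. These low clusters held 45469 members (95.5%), had a median length of 92 bases and a median of 313 summed reads per striatum. The mean of the drug-treated rats was under 1% in 2411 of them, from 1% to 2% in 2180, and 20% or more in 9.

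The low clusters with the most members were chr12:44962881-44963481 with 33, chr13:52514672-52514942 at Nav1 with 31 and chr19:41710112-41710652 with 30. Their levels were 1.37% ± 0.426 and 1.41% ± 0.101 in L-DOPA and L-DOPA + R for the first, 0.844% ± 0.485 and 0.859% ± 0.0884 for the second, and 3.25% ± 0.406 and 2.85% ± 0.386 for the third (SD, n = 3 rats). None of the 3 passed the test, and the treatments overlapped at each.

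With reads summed over each cluster, 20 of the 13151 clusters differed between L-DOPA + R and L-DOPA, a background of 0.152%. Of the 5445 low clusters 2 were called, both lower in L-DOPA + R, and 378 (6.94%) had an unadjusted p under 0.05, against 8.54% of all clusters. Within 1 percentage point of no difference lay 92.1% of the low clusters. The first called was the run of 6 members at Arf6, chr6:91697254-91697343, at 8.81% ± 4.48 after L-DOPA and 0.926% ± 0.404 after L-DOPA + R (difference in summed reads -8.29 points, q = 0.00292), which holds the sites above and is no separate evidence.

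The second was a run of 9 members at chr7:732834-732952, with no placed start or gene in the annotation used. Its level was 11.5% ± 1.98 in UNT, 14.8% ± 0.593 after L-DOPA and 9.15% ± 1.96 after L-DOPA + R, with a difference between the drug groups of -6.09 points (q = 0.00734). The L-DOPA rats were at 14.2%, 14.8% and 15.3% and the L-DOPA + R rats at 9.32%, 7.12% and 11.02%, without overlap. In striata, L-DOPA ran from 11.5% to 16.9% and L-DOPA + R from 5.22% to 11.4%, also without overlap. Both cluster calls were lost by the F test (q = 0.792). The Arf6 cluster was lost with the rat as the unit (q = 0.0263), with a minimum of 20 reads (q = 0.0830) and without any 1 L-DOPA + R rat (q from 0.0244 to 0.0563), and without L-DOPA rat 1 its difference was -4.95 points. The call of the chromosome 7 cluster was lost without each rat but L-DOPA + R rat 3 (q from 0.0213 to 0.104). It was also lost with the replicate number as a block (q = 0.0105). None of the 9 members on chromosome 7 was called alone, and the largest single difference was -10.1 points at chr7:732898.

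**Figure D5:**
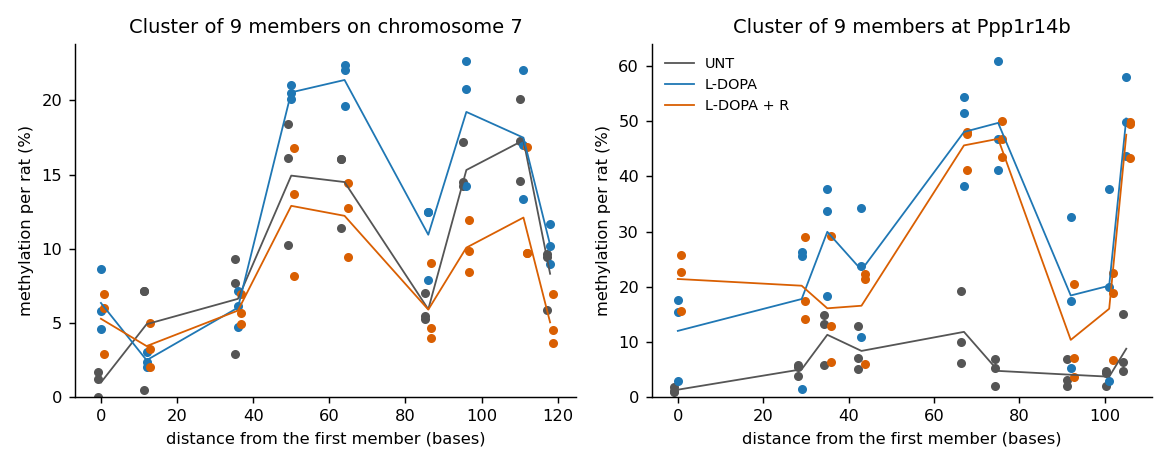
Methylation in percent per rat (points) and treatment mean (lines) at each of the 9 members of the chromosome 7 cluster and of the Ppp1r14b cluster, against distance from the first member in bases. In the first the L-DOPA rats lie above the L-DOPA + R rats at most middle positions, in the second the means of both drug groups lie above that of UNT at each member, with single rats overlapping at several.

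Lesioned and control striata were compared within each treatment, which asks whether the loss of dopamine input goes with a change at these sites. No member was called in UNT, L-DOPA or L-DOPA + R, against backgrounds of 0.00193%, 0.00101% and 0.00176% of all CpGs tested. At an unadjusted p under 0.05 stood 2326, 1499 and 2069 members, 4.89%, 3.15% and 4.35%, against 6.45%, 5.40% and 6.29% of all CpGs. The logistic test treats both striata of a rat as separate samples, the version with the rat as a block also called 0 members in each treatment, with 29, 23 and 32 of all CpGs called against 14, 4 and 7 without it, and the F test called 0 members. UNT entered the choice of the members through both sides equally, and its values are a description.

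Whether the sides differed by treatment was tested as an interaction of L-DOPA + R or L-DOPA with side, and 0 members were called against a background of 0.000658%. An unadjusted p under 0.05 was seen for 2036 members, 4.28%, against 6.12% of the 303723 CpGs tested, and no other tool was run. At the 3 Arf6 sites the L-DOPA mean reflected both sides, with control striata at 5.66% to 15.6% and lesioned striata at 6.25% to 33.3%. Within each L-DOPA rat the lesioned side was the higher one at each of these sites. The sites are not separate evidence, and none was called between sides.

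Differences from UNT, given as a description, were of similar number in both drug groups, which share the UNT striata. In L-DOPA 32 members passed q under 0.01, 20 higher and 12 lower, or 0.0672% against a background of 0.351%. In L-DOPA + R 29 passed, 15 higher and 14 lower, or 0.0609% against 0.445%. The F test called 1 member in each, the rat as the unit 16 and 28, and leaving out 1 rat 12 to 64 and 19 to 46. At an unadjusted p under 0.05 stood 2808 members for L-DOPA, 5.90% against 7.37% of all CpGs tested, and 3312 for L-DOPA + R, 6.96% against 9.52%. Of the 5445 low clusters, 10 were called for L-DOPA against a background of 1.00%, and 11 for L-DOPA + R against 1.56%. The members were selected on the UNT levels, so nothing is read from these shares. With the limit of 20% set on the drug-treated striata instead of UNT, 15 members were higher and 32 lower after L-DOPA, and 10 higher and 30 lower after L-DOPA + R, so the balance of directions depends on which group sets the limit. The rule itself limits how far a member can fall. Cytosines that lie 46 to 50 bases past another covered cytosine, near where reads end, made up 9 of the 32 and 7 of the 29, against 30.01% of all members, and without such cytosines 10 and 13 members were called, while the calls over all CpGs went from 2300 to 468 and from 2867 to 781.

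The widest of these differences lay at Ppp1r14b, an inhibitor of protein phosphatase 1, in an exon and the promoter by the study's rn6 annotation. At chr1:222229996 the UNT rats were at 6.88%, 5.21% and 2.00%, the L-DOPA rats at 46.9%, 61.0% and 41.2%, and the L-DOPA + R rats at 50.1%, 46.8% and 43.6%. At chr1:222230026 UNT striata ran from 0 to 21.9%, L-DOPA striata from 42.4% to 60.9% and L-DOPA + R striata from 36.8% to 56.0%. At chr1:222229988 the ranges were 3.85% to 25.8%, 33.3% to 54.5% and 35.9% to 59.4%. These 3 sites were named for small p-values against UNT and a one-way difference from UNT in all rat comparisons. That both drug groups stood clear of UNT there restates this choice. The drug groups overlapped with each other at these sites. The F test on the same striata is likewise a description. By the F test chr1:222229996 kept its call for both drug groups, and chr1:222230026 (q = 0.0142 and 0.0228) and chr1:222229988 (q = 0.0332 and 0.0801) lost theirs.

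Besides these 3 sites, chr1:222229921 was the only member of the run called against UNT, for both drug groups. The remaining members lay higher than UNT in summed reads in both drug groups and were not called. At chr1:222229921 the means were 1.29% ± 0.441 in UNT, 11.96% ± 7.95 after L-DOPA and 21.4% ± 5.22 after L-DOPA + R. Over all 9 members of chr1:222229921-222230026 the levels were 6.55% ± 2.59, 32.2% ± 10.8 and 27.4% ± 3.50 (SD, n = 3 rats). Between the drug groups this cluster differed by -5.21 points and did not pass (q = 0.7999).

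On chromosome 2, chr2:551009 was at 0 in all 6 UNT striata, from 4.76% to 19.1% after L-DOPA and from 2.78% to 11.5% after L-DOPA + R. Next to it, chr2:550986 had means of 0.321% ± 0.555, 10.9% ± 6.09 and 6.89% ± 1.73. In the other direction, chr1:222392893 in an intron of Macrod1, an ADP-ribose hydrolase, was at 12.6% ± 5.03 in UNT, at 0 in all 6 L-DOPA striata and at 0.556% ± 0.962 in L-DOPA + R (SD, n = 3 rats). The Macrod1 site lies 46 to 50 bases past another covered cytosine. UNT did not overlap with either drug group at these 3 sites, which again restates that they were chosen for a one-way difference from UNT. None passed the F test (for L-DOPA q = 0.0188, 0.166 and 0.133).

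Some members differed most between rats of one treatment. A range of 20 points or more over the 3 rats of L-DOPA or of L-DOPA + R was seen at 143 members (0.300%), and of 40 points or more at 7. At chr6:73604298 the L-DOPA rats were at 95.4%, 36.5% and 48.3%, the L-DOPA + R rats at 0, 0 and 100%, and the UNT rats at 0, 0 and 50%. At chr1:169151989 the L-DOPA rats were at 0, 77.04% and 0, with L-DOPA + R at 40.2%, 52.8% and 45.9%. At chr4:62858604 a single L-DOPA + R rat was at 75.1% and the other 8 rats at 1.46% or less. At chr1:208824063 a single L-DOPA rat was at 54.6%, and at chr12:42623050 the L-DOPA rats were at 39.7%, 0 and 44.8%. Where a rat was raised at these 5 sites, both of its striata were raised. UNT rats also differed at chr1:169151989, at 43.9%, 0 and 0, and at chr12:42623050, at 0, 53.8% and 0.459%. At chr1:208824063 they stayed at 3.5% or less. Whether the DNA sequence of the rats differed at these sites was not tested.

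Beside the other classes of CpGs covered in all striata, the members had the smallest range of treatment means in percentage points of the 6 classes. Dense CpGs at 20% to 80% in UNT had means of 46.9% ± 0.998 after L-DOPA and 45.6% ± 2.49 after L-DOPA + R, and 5 of 3384 were called between the drug groups, 0.148%. Dense CpGs at 80% or more had 92.8% ± 0.224 and 92.5% ± 0.145, with 3 of 5845 called. Among CpGs that were low but not dense, 39 of 65845 were called, 0.0592%, at means of 3.65% ± 0.129 and 3.399% ± 0.154 (SD, n = 3 rats). The shares of called CpGs were not tested against one another, and the smallest change in points that a test can find depends on level and depth.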

How the data were processed

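Reduced representation bisulfite sequencing of genomic DNA from 18 striata (3 treatments, 3 rats each, both sides) was used. Per the labels and the study's methods, the authors cut DNA with MspI, trimmed reads with Trim Galore 0.4.0, mapped them to rn6 with Bismark (version given as 014.3 in the submitters' processing notes, which also name CASAVA) and read cytosines in CpG context into methylKit. The deposited files give a read count (coverage) and the percent of methylated and unmethylated reads for each cytosine. Methylated reads were recovered by multiplying both, which gave whole numbers within 0.05 for at least 99.996% of cytosines.

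Cytosines with at least 10 reads were kept, both strands of a CpG were summed, and each CpG was tested by logistic regression with overdispersion estimated from Pearson residuals (not below 1), a chi-square test and Benjamini-Hochberg q-values over all CpGs tested, called at q under 0.01. The overdispersion correction, the chi-square test and the limits of 10 reads and q under 0.01 follow the authors. Summing strands and the Benjamini-Hochberg adjustment are choices made here, which the study's methods do not state. Treatments were compared over both sides with at least 4 of 6 striata per group, sides and the interaction with all striata present. Control and lesioned striata with the same treatment and replicate number were read as 1 rat, which the labels do not state outright, and all values per rat rest on this reading. Both striata of a rat are not independent. Deviations of both striata of a rat correlated with r from 0.0332 to 0.111 over all CpGs and from 0.00620 to 0.0566 over the members. Striata of different rats of a treatment were not set beside these values, so they cannot decide whether the reading is right. Clusters were tested on summed reads. Error is the SD over 3 rats, each the mean of its striata.

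Promoter sequences (250 bases before to 50 after a start) came from RefSeq GRCr8. A window was placed on rn6 where at least 11 CpGs, covered in 9 striata or more, all fell on CG dinucleotides at 1 position of its chromosome. Of 32007 windows 3138 were placed, 150 of them inverted. Each window was searched on its own chromosome only. As a control for false matches, each was also searched on a single other chromosome, and 0 were placed there. Gene and feature names of called CpGs came from the study's rn6 annotation of sites.

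Sites were named by rule. These were all called members between the drug groups or between sides within them, the 6 called members with the smallest p per comparison with UNT that moved one way in all 9 rat comparisons, the 3 on each side of 20%, the 3 with most neighbours, the 3 clusters with most members, and the 5 with the largest range over rats in L-DOPA or L-DOPA + R. Called clusters between the drug groups, the Ppp1r14b cluster and the CpGs around the Arf6 start were chosen after their values were seen. The members and lists were chosen with earlier results of these data known. Depth, given in the report, limits small changes, since at 20 reads 1 read is 5 points. Alternatives were a minimum of 20 reads, an F test, leaving out cytosines 46 to 50 bases past another or the 0.1% with the highest coverage, the replicate number as a block, the rat as the unit, each rat left out, and other limits of the rule. Python 3.11.15, NumPy 2.4.6, SciPy 1.17.1, pandas 2.3.3, Numba 0.67.0 and Matplotlib 3.10.9 were used.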

Additional observations from a re-analysis of the deposited data

Results flagged for a closer look

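Of 36 groups of 6 striata examined for a single striatum far from the rest, 2 were found. With the other 5 striata at 0, the measure is at its maximum for any remaining value above 0. The usual chance rate of about 1 in 20 therefore does not apply. At chr2:550986 the lesioned striatum of UNT rat 3 was at 1.92% while the other 5 UNT striata were at 0. At chr1:222392893 the lesioned striatum of L-DOPA + R rat 3 was at 3.33% while the other 5 were at 0.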

How the results depend on the processing

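Between L-DOPA + R and L-DOPA, 4 members and 2 low clusters were called. The F test gave 0 and 0, a minimum of 20 reads 1 and 1, and requiring 10 neighbours 0 members, while the rat as the unit gave 1 cluster. Leaving out 1 rat gave 1 to 12 members and 1 to 6 clusters, the highest without L-DOPA + R rat 3. Against UNT the F test gave 1 member for each drug group, against 32 and 29. Leaving out cytosines 46 to 50 bases past another gave 10 and 13, and 10 neighbours gave 10 and 5. The rat as the unit gave 16 for L-DOPA. Leaving out 1 rat gave 12 to 64 for L-DOPA and 19 to 46 for L-DOPA + R, the highest of both without UNT rat 3. Between sides, 0 members were called under every alternative run, except 1 in UNT without UNT rat 3 (range 0 to 1). The interaction was run in 1 way only. The cause of these shifts was not tested.

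With the replicate number as a block, 8 members and 4 clusters were called between L-DOPA + R and L-DOPA and 50 members between L-DOPA + R and UNT. The Arf6 cluster kept its call in this setting, and the chromosome 7 cluster lost it (logistic test, q = 0.0105). Between treatments the numbers name different rats and give no pairing. Same-numbered rats correlated with r from -0.0377 to 0.0152. For L-DOPA + R against L-DOPA, L-DOPA against UNT and L-DOPA + R against UNT, 0, 6 and 5 of 6 rats correlated best with their own number. Deviations were taken from the mean of each treatment, so these counts are not independent, and no pairing is read from them. Within a rat, where the block pairs both striata, 0 members were called as without it.

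The mean levels in UNT, L-DOPA and L-DOPA + R were 1.33%, 1.36% and 1.32% with a limit of 10%, 1.27%, 1.23% and 1.23% with 10 neighbours, 1.70%, 1.71% and 1.65% without cytosines 46 to 50 bases past another, and 1.87%, 1.804% and 1.75% as shares of summed reads. A minimum of 20 reads gave 1.74% after L-DOPA and 1.65% after L-DOPA + R, and a rule on the drug-treated striata gave 1.74% in UNT and 1.68% in L-DOPA. Leaving out 1 rat gave 1.62% to 1.67%, 1.63% to 1.66% and 1.57% to 1.62%. Between the drug groups, 19 of 44 values of the named sites under an alternative lost their call, and against UNT 10 of 143, and none changed direction. The Arf6 sites were not tested at 20 reads. Limits were 3 rats per group and 12 to 67 reads per striatum at the sites called between the drug groups.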
